A study of Rattus norvegicus with 15 samples.

Results

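The liver turns ammonia into urea and glutamine, and 10 genes that carry out this work were followed here among the 21576 genes of a rat liver RNA sequencing table. They were chosen by name, and all 10 were found in the table and had enough counts to be tested. Cps1, Otc, Ass1, Asl and Arg1 encode the 5 enzymes of the urea cycle. Nags makes the activator of the cycle's entry enzyme, Slc25a15 carries ornithine into mitochondria, and Glud1, Gls2 and Glul handle glutamate and glutamine. The libraries came from livers of male Sprague-Dawley rats, 5 libraries in each of 3 groups. ZXD rats ate a lipid-raising feed and, after 4 weeks on it, were given Zexie Decoction, a herbal preparation of Alisma and Atractylodes rhizomes. It was dosed by mouth at 2.2 g per kg each day for 4 more weeks. HFD rats ate the same feed for the same time and were given saline in place of the decoction. CON rats ate normal chow. The feed was made of 66% base forage, 16.7% sucrose, 8.3% yolk, 7% lard and 2% cholesterol, with 0.3% sodium cholate, a bile salt, and 0.2% propylthiouracil, a drug that blocks thyroid hormone synthesis. ZXD and HFD rats thus shared both of these agents and CON rats had neither. The labels give 10 rats per group and no ages, and they do not say which rats gave the libraries. Should some of the libraries share an animal, the p-values cover no more than the spread between samples, which may be technical in part.

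In the urea cycle, Cps1 joins ammonia and bicarbonate to carbamoyl phosphate in the mitochondrion, and Otc passes this to ornithine to make citrulline. Ass1 and Asl build and split argininosuccinate in the cytosol, and Arg1 releases urea and returns ornithine. Cps1 works only when bound to N-acetylglutamate, the product of Nags. In rodent liver these enzymes and the glutaminase Gls2 lie mostly in periportal hepatocytes, where blood enters the lobule. Glutamine synthetase, encoded by Glul, lies in a thin layer of pericentral hepatocytes around the outflow vein and takes up ammonia that the cycle has left.

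The total count per library was 12688915 to 13532245 in ZXD, 12552449 to 13687385 in HFD and 12972523 to 14228052 in CON. Levels below are CPM values, the count as a share of the library, scaled with edgeR's TMM factors, which were 1.01 to 1.28 in ZXD and HFD and 0.793 to 0.868 in CON. Hepatocyte marker genes were abundant in every library, with sums over 9 markers of 57460 to 107700 CPM in ZXD, 75210 to 109200 CPM in HFD and 166400 to 211100 CPM in CON. Of these 9 markers 4 fell in HFD and 5 in ZXD relative to CON at an edgeR adjusted p under 0.05 and none rose, with median log2 fold changes of -0.61 and -0.64. Markers of macrophages and Kupffer cells, the resident macrophages of the liver, set some libraries apart. The sum over 18 such markers was 2128, 998, 6047, 7760 and 2776 CPM in ZXD replicates 1 to 5, 1306, 4125, 1785, 689 and 3119 CPM in HFD replicates 1 to 5, and 971, 746, 396, 919 and 428 CPM in CON replicates 1 to 5. Cd74 had the highest mean of the 18 in ZXD and HFD, at 1449 and 1034 CPM. The markers did not all move alike, and Vsig4 and Cd163 had lower means in HFD than in CON. Their log2 fold changes were -1.09 and -0.69 (edgeR adjusted p = 0.0605 and 0.249). Of these 18 markers, 7 were higher and none lower in HFD than in CON at an edgeR adjusted p under 0.05. In ZXD relative to CON 14 were higher and none lower. Of 11 tested T, B and NK cell markers 7 and 10 were higher in the same comparisons. Of 6 markers of cholangiocytes, the bile duct cells, 3 were higher in HFD and 2 in ZXD than in CON, with sums of 39.3 to 83.2 CPM in ZXD, 49.95 to 93.8 CPM in HFD and 17.9 to 28.1 CPM in CON. The sum over 7 sinusoidal endothelial markers was 430.2 to 607 CPM in ZXD, 107 to 379 CPM in HFD and 89.3 to 403 CPM in CON, and 3 of the 7 were higher in ZXD than in CON. Of 7 tested stellate and fibroblast markers 1 fell in HFD and 1 rose in ZXD, and of 4 erythroid markers 1 fell in each, relative to CON. Beside all these marker counts, 10.0% of all tested genes were called higher and 10.9% lower for HFD versus CON. For ZXD versus CON it was 17.9% higher and 14.8% lower. The libraries ZXD 3, ZXD 4, HFD 2 and HFD 5 had the highest macrophage marker sums of their groups, and the values of the 10 genes are also given without them. In bulk liver RNA, fewer cells of a type and less RNA per cell cannot be told apart.

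Promoter sequences are shown for the 4 genes that passed the test in a comparison, Glud1, Slc25a15, Glul and Nags. That of Cps1 is shown as the only window of these genes with the motif CAAAGTCCA. The windows of Gls2 and Otc, which held matches to another motif, are not shown. Each is the 250 bases before a transcription start in the RefSeq annotation of the rat genome build GRCr8, written 5′ to 3′ on the strand of the gene, and Glul has 2 annotated starts. Capitals mark a motif.
Glud1, chr16:9646319-9646568, + strand: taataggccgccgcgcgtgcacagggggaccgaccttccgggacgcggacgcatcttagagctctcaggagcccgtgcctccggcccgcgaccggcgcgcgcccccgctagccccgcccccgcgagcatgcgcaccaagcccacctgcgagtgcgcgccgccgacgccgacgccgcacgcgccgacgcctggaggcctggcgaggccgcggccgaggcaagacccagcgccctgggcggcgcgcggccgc
Slc25a15, chr16:76336620-76336869, + strand: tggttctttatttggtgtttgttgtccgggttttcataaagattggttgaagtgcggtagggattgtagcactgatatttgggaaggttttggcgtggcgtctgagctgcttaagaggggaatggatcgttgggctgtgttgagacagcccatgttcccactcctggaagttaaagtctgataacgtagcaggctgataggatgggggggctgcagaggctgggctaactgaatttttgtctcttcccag
Glul, upstream start, chr13:68519250-68519499, + strand: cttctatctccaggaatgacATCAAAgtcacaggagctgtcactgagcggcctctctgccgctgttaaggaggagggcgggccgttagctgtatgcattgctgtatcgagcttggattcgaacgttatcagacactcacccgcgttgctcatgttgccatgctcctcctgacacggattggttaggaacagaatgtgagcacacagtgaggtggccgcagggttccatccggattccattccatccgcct
Glul, downstream start, chr13:68575816-68576065, + strand: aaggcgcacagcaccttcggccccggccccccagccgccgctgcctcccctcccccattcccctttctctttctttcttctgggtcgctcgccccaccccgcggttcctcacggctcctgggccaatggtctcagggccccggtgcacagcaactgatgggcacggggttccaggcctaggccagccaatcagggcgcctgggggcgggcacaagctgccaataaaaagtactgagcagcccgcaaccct
Nags, chr10:87598266-87598515, + strand: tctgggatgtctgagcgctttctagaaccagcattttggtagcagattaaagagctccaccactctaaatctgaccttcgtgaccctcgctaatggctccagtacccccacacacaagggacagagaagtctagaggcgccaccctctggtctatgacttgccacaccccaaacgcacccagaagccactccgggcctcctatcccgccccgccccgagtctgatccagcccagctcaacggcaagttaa
Cps1, chr9:76063613-76063862, + strand: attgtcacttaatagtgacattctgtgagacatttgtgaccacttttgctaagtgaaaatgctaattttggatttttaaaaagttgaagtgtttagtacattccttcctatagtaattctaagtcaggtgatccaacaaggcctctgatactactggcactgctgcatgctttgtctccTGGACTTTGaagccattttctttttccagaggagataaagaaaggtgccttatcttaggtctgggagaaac
RefSeq gave such windows for 9 of the 10 genes, 11 windows in all, and Arg1 had no entry. Both strands were searched for 4 motifs, and no matches overlapped. CAAAGTCCA, a form of the site known for the hepatocyte factor HNF4, was found in the Cps1 window on the opposite strand, 71 bases before the start, and it was present in 0.338% of 33469 rat promoter windows of the same length. TTTGAT, a core of the site known for TCF factors of Wnt signalling, was found in the upstream Glul window on the opposite strand at 230 bases before the start, in 1 of 2 Gls2 windows at 72 bases and in the Otc window at 12 bases, and it was present in 10.4% of all windows. TGACGTCA, the cyclic AMP response element, and TTGCGNAA, a C/EBP site, were in 1.59% and 0.729% of all windows and had no match in the 11 windows of these genes. The windows of Glud1, Slc25a15 and Nags held no match to any of the 4 motifs. A match is a description of the letters and not a measured binding site.

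On the diet with saline, 3 of the 10 genes fell relative to chow, Glud1, Slc25a15 and Glul, and none rose. Under the decoction compared with saline on the same diet, none of the 10 passed the test, and Glul had the smallest p. In decoction-treated livers compared with chow, Glud1 and Nags fell and none rose. Genes were called with edgeR's quasi-likelihood test at a Benjamini-Hochberg adjusted p under 0.05. For HFD versus CON, 3 of 10 genes called lower stands beside 10.9% of all 13163 tested genes called lower and 10.0% called higher, 21.0% in either direction. At an unadjusted edgeR p under 0.05 it was 4 of the 10 and 37.0% of all genes. For ZXD versus HFD, 0 of the 10 genes stands beside 0 of all genes called, or 0.0%. At an unadjusted p under 0.05 the edgeR test passed 2 of the 10 genes and 16.5% of all genes. For this comparison limma voom called 0 genes and DESeq2 called 342 genes, among them Glul. For ZXD versus CON, 2 of 10 genes called lower stands beside 14.8% of all genes called lower, 17.9% called higher and 32.7% called in either direction. At an unadjusted edgeR p under 0.05 it was 4 of the 10 and 43.7% of all genes. The median log2 fold change of the 10 genes was -0.58 for HFD versus CON beside 0.02 over all tested genes, 0.07 for ZXD versus HFD beside 0.02, and -0.51 for ZXD versus CON beside 0.03. The hepatocyte markers had medians of -0.61 and -0.64 in the comparisons with CON, as given above, and the part of the hepatocyte share in the lower values of the 10 genes was not tested. With library totals in place of TMM factors, 1 of the 10 genes was called higher, Asl, and 2 lower for HFD versus CON, and 1 higher, Asl, and 1 lower for ZXD versus CON. On that scale 40.9% of all genes were called higher and 3.84% lower for HFD versus CON, and 45.9% higher and 4.77% lower for ZXD versus CON. Without HFD 2, HFD 5, ZXD 3 and ZXD 4, a choice made after the data were seen, the split was again 1 higher and 2 lower for HFD versus CON and 1 higher and 1 lower for ZXD versus CON, with Asl the higher gene. Of all genes 5.2% were then called higher and 7.06% lower for HFD versus CON, and 7.15% higher and 7.81% lower for ZXD versus CON. HFD versus CON and ZXD versus CON share the same CON libraries, and ZXD versus HFD shares a group with each. With library totals the median over all genes was 0.44 for HFD versus CON and 0.45 for ZXD versus CON, against 0.02 and 0.03 with TMM, and changes are given relative to the TMM scale unless stated.

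**Figure D1:**
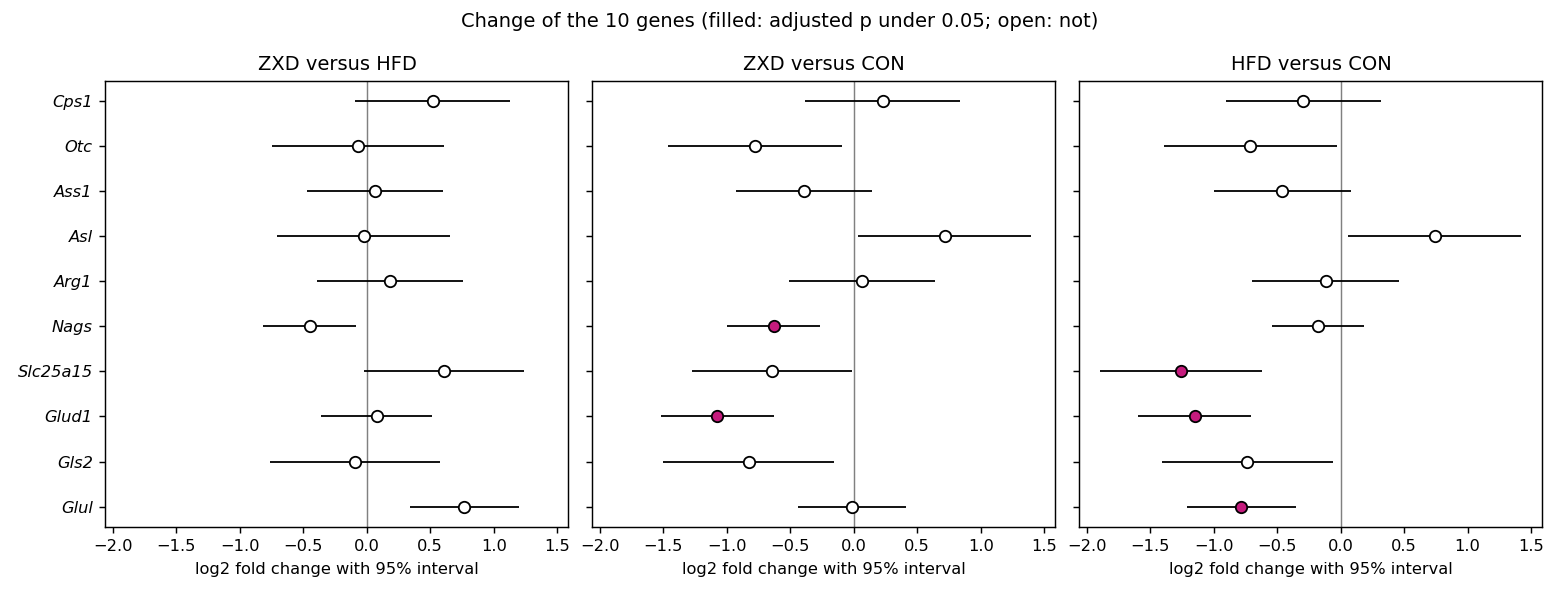
The log2 fold change of each of the 10 genes in the 3 comparisons, on the horizontal axis. Points are edgeR estimates, and filled points have an adjusted p under 0.05. Bars are approximate 95% intervals from a normal quantile. They are narrower than the test implies, so a bar can miss 0 where the unadjusted p is over 0.05. The filled points are Slc25a15, Glud1 and Glul for HFD versus CON and Nags and Glud1 for ZXD versus CON, all left of 0, and no point is filled for ZXD versus HFD.

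To compare levels between the genes, the deposited FPKM values were used, which are counts scaled by gene length and by the total count of the library, with no TMM scaling. Ass1 was the most abundant of the 10 per length in 14 of 15 libraries, and Nags the least abundant in 14 of 15. The mean FPKM ran in ZXD from Ass1 at 1843 through Cps1 at 1352, Arg1 at 1274 and Asl at 419 to Otc at 204. Below these came Glul at 189.8, Glud1 at 189, Slc25a15 at 117, Gls2 at 81.9 and Nags at 33.5. In HFD it ran from Ass1 at 1786 through Arg1 at 1146, Cps1 at 962 and Asl at 435 to Otc at 220.1. Below these came Glud1 at 182, Glul at 111, Gls2 at 88.9, Slc25a15 at 77.5 and Nags at 46.2. In CON it ran from Ass1 at 1837 through Arg1 at 932, Cps1 at 880.5 and Glud1 at 302 to Otc at 269.6. Below these came Asl at 195, Glul at 142.5, Slc25a15 at 138, Gls2 at 111 and Nags at 39.0. Neighbours in this order mostly overlapped over the 5 libraries. In CON the ranges of Ass1 and Arg1, of Cps1 and Glud1, of Otc and Asl, and of Gls2 and Nags were apart. In HFD only those of Glud1 and Glul were apart, and in ZXD no neighbours were. Together the 10 genes held 0.766 to 1.84% of all counts in ZXD, 0.775 to 1.55% in HFD and 1.01 to 1.2% in CON.

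The order of Asl and Glud1 differed between the diet groups and chow, a pair that was picked out after its values were seen. The FPKM of Asl was above that of Glud1 in 5 of 5 ZXD libraries, with ratios of 1.35 to 2.79 and a median of 2.06. It was above in 5 of 5 HFD libraries, with ratios of 1.32 to 3.37 and a median of 2.5. It was above in 1 of 5 CON libraries, with ratios of 0.419 to 1.16 and a median of 0.582. The ratios of the diet libraries thus did not overlap those of CON, with CON 1 at 1.16 and HFD 2 at 1.32 the nearest. Because both genes are read in the same library, the order does not depend on the scaling between libraries. How many other pairs of genes have ratios that likewise do not overlap was not tested. The values therefore describe this chosen pair only.

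**Figure D2:**
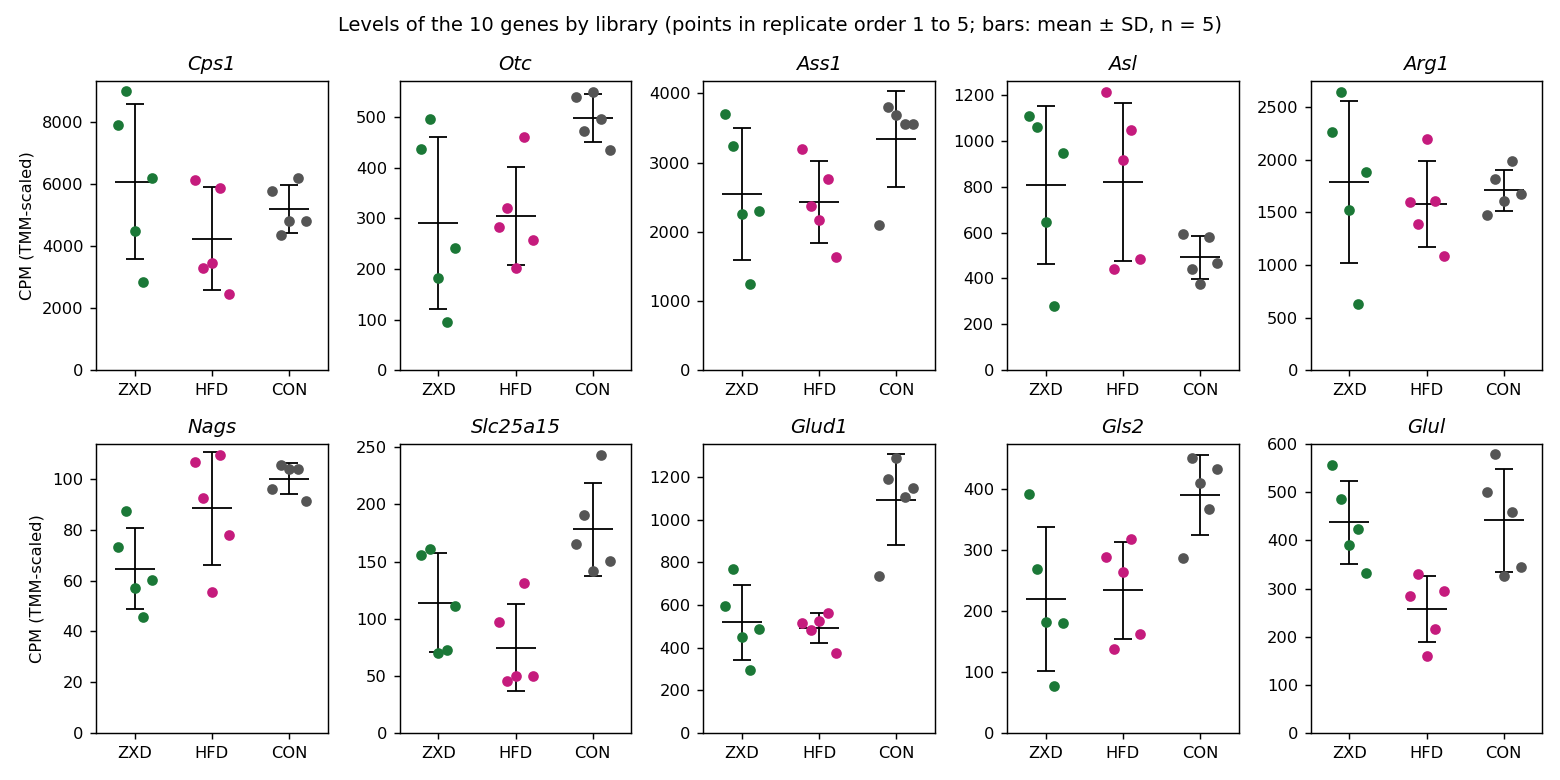
The level of each of the 10 genes in each library (vertical axis, TMM-scaled CPM from 0; points in replicate order 1 to 5; bars, mean ± SD, n = 5 in ZXD, HFD and CON). Glud1 and Slc25a15 in all 5 HFD libraries lie below all 5 CON libraries, Glul in all 5 ZXD libraries lies above all 5 HFD libraries, and Nags in all 5 ZXD libraries lies below all 5 CON libraries. In FPKM, without TMM factors, each of these 4 pairs of groups overlapped.

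The 5 urea cycle enzymes did not pass the test in any comparison, and for 4 of them, Cps1, Otc, Asl and Arg1, the SD between libraries was larger in ZXD and in HFD than in CON. Cps1, the entry enzyme, had 7877, 8977, 4464, 2840 and 6179 CPM in ZXD replicates 1 to 5, 6114, 3294, 3448, 5856 and 2442 CPM in HFD replicates 1 to 5, and 5779, 4340, 4813, 6195 and 4801 CPM in CON replicates 1 to 5. ZXD 1 and ZXD 2 were the highest and HFD 5 the lowest of all 15 libraries, and the groups overlapped. The means were 6067 ± 2487 CPM in ZXD, 4231 ± 1649 in HFD and 5185 ± 770 in CON (SD, n = 5 each). Cps1 passed the test in no comparison. Its log2 fold change was -0.29 (SE 0.31, edgeR adjusted p = 0.514) for HFD versus CON, with an approximate 95% interval of -0.90 to 0.32. The change was 0.52 (SE 0.31, edgeR adjusted p = 0.403) for ZXD versus HFD and 0.23 (edgeR adjusted p = 0.611) for ZXD versus CON. Without HFD 2 and HFD 5 it was -0.013 (edgeR adjusted p = 0.987) for HFD versus CON and 0.24 (edgeR adjusted p = 0.748) for ZXD versus HFD. For ZXD versus CON it was 0.57 without HFD 2, HFD 5, ZXD 3 and ZXD 4 (edgeR adjusted p = 0.0908) and 0.62 with library totals (edgeR adjusted p = 0.0793).

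Asl, which splits argininosuccinate into arginine and fumarate, was the only enzyme of the 5 with a higher mean in HFD than in CON, although with library totals Cps1 and Arg1 were higher too, at log2 fold changes of 0.13 and 0.30 that missed the test. It had 1109, 1059, 647, 279 and 945 CPM in ZXD replicates 1 to 5, 1214, 443, 917, 1047 and 484 CPM in HFD replicates 1 to 5, and 593, 443, 376, 582 and 466 CPM in CON replicates 1 to 5. HFD 2 and HFD 5 lay within the CON range and ZXD 4 below it, and every other diet library lay above all 5 CON libraries. The means were 808 ± 346 CPM in ZXD, 821 ± 343 in HFD and 492 ± 93.4 in CON. The log2 fold change was 0.74 (SE 0.35, edgeR adjusted p = 0.137) for HFD versus CON and 0.71 (edgeR adjusted p = 0.128) for ZXD versus CON, and neither passed the test. Without HFD 2, HFD 5, ZXD 3 and ZXD 4, Asl passed the test with a log2 fold change of 1.11 (edgeR adjusted p = 0.00204) for HFD versus CON and 1.08 (edgeR adjusted p = 0.00232) for ZXD versus CON. Without ZXD 4 alone it passed for ZXD versus CON at 0.93 (edgeR adjusted p = 0.0299), and with library totals it passed at 1.16 and 1.10 (edgeR adjusted p = 0.0117 and 0.0116). For ZXD versus HFD it was -0.024 with all libraries and -0.39 without HFD 2 and HFD 5 (edgeR adjusted p = 0.979 and 0.568). The 4 libraries left out are those with the highest macrophage marker sums of their groups, and the part of these cells in the result was not tested.

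Otc and Ass1 had lower means on the diet and Arg1 similar ones, except that with library totals Ass1 in ZXD was 0.005 above CON on the log2 scale. Otc, which makes citrulline, had 95.8 to 496 CPM with a mean of 290.5 ± 170 in ZXD, 202 to 461 CPM with a mean of 305 ± 97.4 in HFD, and 436 to 549 CPM with a mean of 499 ± 47.0 in CON. Its highest ZXD and HFD libraries reached into the CON range, and its log2 fold change was -0.71 (SE 0.35, edgeR adjusted p = 0.151) for HFD versus CON and -0.78 (SE 0.35, edgeR adjusted p = 0.0981) for ZXD versus CON. Without ZXD 2, the library of its group with the most Otc, the edgeR adjusted p for ZXD versus CON was 0.0257, and in a fit of HFD and CON alone that for HFD versus CON was 0.0252. The log2 fold change of Otc without HFD 2, HFD 5, ZXD 3 and ZXD 4 was -0.35 for ZXD versus CON (edgeR adjusted p = 0.388), and for HFD versus CON it was -0.66 (edgeR adjusted p = 0.135). With library totals it was -0.40 for ZXD versus CON (edgeR adjusted p = 0.301) and -0.29 for HFD versus CON (edgeR adjusted p = 0.459). Ass1, which joins citrulline and aspartate, averaged 2546 ± 958 CPM in ZXD, 2428 ± 592 in HFD and 3339 ± 699 in CON, where CON 1 at 2102 CPM stood below the other CON libraries at 3551 to 3797 CPM. Arg1, which releases urea, averaged 1786 ± 771 CPM in ZXD, 1574 ± 408.5 in HFD and 1709 ± 195 in CON. For Ass1 and Arg1 the edgeR adjusted p lay at 0.237 and 0.796 for HFD versus CON and at 0.291 and 0.891 for ZXD versus CON. Their log2 fold changes were -0.46 and -0.12 for HFD versus CON and -0.39 and 0.064 for ZXD versus CON. These became, without HFD 2, HFD 5, ZXD 3 and ZXD 4, -0.30 and 0.077 for HFD versus CON and -0.115 and 0.40 for ZXD versus CON, and none passed the test.

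The ornithine carrier Slc25a15 fell on the diet. It had 96.7, 45.5, 50.1, 131 and 50.1 CPM in HFD replicates 1 to 5, against 165, 191, 142, 243 and 150.4 CPM in CON replicates 1 to 5. All 5 HFD libraries lay below all 5 CON libraries, with HFD 1 and HFD 4 nearest to them. The means were 74.7 ± 37.8 CPM in HFD and 178 ± 40.6 CPM in CON, and edgeR gave a log2 difference of -1.25 (SE 0.33, adjusted p = 0.0156). In FPKM, without TMM factors, the groups overlapped, with the highest HFD library at 132.8 and the lowest CON library at 108.9, and with library totals the call held at -0.83 (edgeR adjusted p = 0.036). Genes whose groups did not overlap made up 15% of all tested genes in HFD versus CON, and 2 of the 10 genes. Without HFD 2 and HFD 5 the log2 fold change was -0.94 (edgeR adjusted p = 0.121), and without ZXD 3 and ZXD 4 as well the edgeR adjusted p was 0.0514. HFD 2 and HFD 5 had the highest macrophage marker sums of the HFD group, and the part of these cells in the fall was not tested. In ZXD the gene had 156, 161, 70.2, 72.2 and 112 CPM in replicates 1 to 5, a mean of 114 ± 43.6 CPM, and ZXD 1, ZXD 2 and CON overlapped. The log2 fold change was 0.61 (SE 0.32, edgeR adjusted p = 0.351) for ZXD versus HFD and -0.64 (edgeR adjusted p = 0.138) for ZXD versus CON. It was 0.30 for ZXD versus HFD without HFD 2 and HFD 5 (edgeR adjusted p = 0.675), and for ZXD versus CON it was -0.32 without these and ZXD 3 and ZXD 4 (edgeR adjusted p = 0.448) and -0.24 with library totals (edgeR adjusted p = 0.518).

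Nags, which makes the activator of Cps1, fell in decoction-treated livers relative to chow. It had 73.4, 87.4, 57.1, 45.6 and 60.3 CPM in ZXD replicates 1 to 5, against 96.0, 106, 104.0, 104 and 91.3 CPM in CON replicates 1 to 5. All 5 ZXD libraries lay below all 5 CON libraries, and 18% of all tested genes likewise had groups that did not overlap in ZXD versus CON. The means were 64.8 ± 16.1 CPM in ZXD and 100.2 ± 6.22 CPM in CON, and edgeR gave a log2 difference of -0.63 (SE 0.19, adjusted p = 0.0193). Without ZXD 4 the edgeR adjusted p was 0.0501, without HFD 2, HFD 5, ZXD 3 and ZXD 4 it was 0.151, and with library totals the log2 fold change was -0.22 (edgeR adjusted p = 0.28). In FPKM the groups overlapped, with the highest ZXD library at 41.9 and the lowest CON library at 37.4. ZXD 4 held the most macrophage marker counts of all libraries and the least Nags of its group, and the part of these cells in the fall was not tested. HFD libraries held 107, 92.4, 55.5, 109 and 78.2 CPM of Nags in replicates 1 to 5, with a mean of 88.5 ± 22.3 CPM, and overlapped both other groups. Neither ZXD versus HFD (log2 fold change -0.45, SE 0.19, edgeR adjusted p = 0.249) nor HFD versus CON (-0.18, SE 0.19, edgeR adjusted p = 0.505) passed the test. For ZXD versus HFD it was -0.30 without HFD 2, HFD 5, ZXD 3 and ZXD 4 (edgeR adjusted p = 0.663).

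Glud1, the mitochondrial glutamate dehydrogenase that links glutamate to free ammonia, fell in both diet groups and kept its call in every alternative run. It had 595, 768, 451, 297 and 487 CPM in ZXD replicates 1 to 5, 517, 481, 525, 564.5 and 375 CPM in HFD replicates 1 to 5, and 734, 1193, 1287, 1107 and 1147 CPM in CON replicates 1 to 5. The HFD libraries all lay below CON, and ZXD overlapped CON only because ZXD 2 at 768 CPM exceeded CON 1 at 734 CPM. The means were 519.5 ± 175 CPM in ZXD, 492.5 ± 72.0 in HFD and 1094 ± 212 in CON. The log2 fold change was -1.15 (SE 0.23, edgeR adjusted p = 0.0035) for HFD versus CON, -1.07 (SE 0.23, edgeR adjusted p = 0.00392) for ZXD versus CON and 0.08 (edgeR adjusted p = 0.882) for ZXD versus HFD. Without HFD 2, HFD 5, ZXD 3 and ZXD 4 the fall stood at -1.03 (edgeR adjusted p = 0.00757) for HFD versus CON and -0.83 (edgeR adjusted p = 0.0201) for ZXD versus CON. With library totals it was -0.73 and -0.68 in the same comparisons, beside medians over all genes of 0.44 and 0.45, and in FPKM the highest HFD library at 203.4 lay just above the lowest CON library at 202.7.

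Gls2, the liver glutaminase that frees ammonia from glutamine in periportal cells, had lower means on the diet that did not pass the test. It ranged from 76.1 to 391 CPM with a mean of 219 ± 118 in ZXD, from 137 to 318 CPM with a mean of 234 ± 79.4 in HFD, and from 286 to 450.4 CPM with a mean of 389 ± 65.6 in CON. ZXD 1 at 391 CPM stood well inside the CON range, and the other 4 ZXD libraries lay below that range. The log2 fold change was -0.73 (SE 0.34, edgeR adjusted p = 0.133) for HFD versus CON and -0.83 (edgeR adjusted p = 0.0765) for ZXD versus CON. Without ZXD 1 the edgeR adjusted p for ZXD versus CON was 0.018, with DESeq2 the adjusted p was 0.0417, and in a fit of HFD and CON alone that for HFD versus CON was 0.0426. Without HFD 2 and HFD 5 the log2 fold change was -0.43 for HFD versus CON (edgeR adjusted p = 0.526) and -0.40 for ZXD versus HFD (edgeR adjusted p = 0.581), where it was -0.092 with all libraries. It was -0.475 for ZXD versus CON without HFD 2, HFD 5, ZXD 3 and ZXD 4 (edgeR adjusted p = 0.166). With library totals it was -0.32 for HFD versus CON and -0.44 for ZXD versus CON (edgeR adjusted p = 0.421 and 0.261).

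Glul, the glutamine synthetase of the pericentral layer, fell in HFD relative to CON, and on the TMM scale its mean in ZXD lay near that in CON. It had 556, 486, 391, 424 and 331.9 CPM in ZXD replicates 1 to 5, 285, 329.8, 159.9, 215 and 295 CPM in HFD replicates 1 to 5, and 502, 580.0, 325, 459 and 345 CPM in CON replicates 1 to 5. All 5 ZXD libraries lay above all 5 HFD libraries, by a small margin between ZXD 5 and HFD 2, while HFD 2 reached above CON 3. The means were 438 ± 86.6 CPM in ZXD, 257 ± 68.4 in HFD and 442 ± 107 in CON. For HFD versus CON the log2 fold change was -0.78 (SE 0.22, edgeR adjusted p = 0.022). This call was lost without CON 2 (edgeR adjusted p = 0.0665), without CON 4 (0.0531) and with library totals (log2 fold change -0.36, edgeR adjusted p = 0.19). For ZXD versus HFD it was 0.77 (SE 0.22, approximate 95% interval 0.34 to 1.20, edgeR adjusted p = 0.155), which did not pass over all genes. Of all tested genes 3.68% likewise had groups that did not overlap in this comparison. DESeq2 gave 0.76 with a DESeq2 adjusted p of 0.0391, and the other alternatives gave adjusted p-values of up to 0.447. For ZXD versus CON the log2 fold change was -0.01 (SE 0.22, edgeR adjusted p = 0.968). With library totals it was 0.41 (edgeR adjusted p = 0.125), and the mean FPKM was 189.8 in ZXD and 142.5 in CON. In FPKM the ZXD and HFD groups overlapped, with the lowest ZXD library at 138.5 and the highest HFD library at 141.5. Within ZXD the library with the highest macrophage marker sum, ZXD 4, had 424 CPM of Glul, near the mean of its group. Within the HFD group the libraries with the highest macrophage marker sums, HFD 2 and HFD 5, had the most Glul. Without HFD 2, HFD 5, ZXD 3 and ZXD 4 the log2 fold change was -1.01 for HFD versus CON (edgeR adjusted p = 0.025) and 1.06 for ZXD versus HFD (edgeR adjusted p = 0.447). The sinusoidal endothelial marker sums of ZXD and HFD did not overlap either, as given above, with a median log2 fold change of 1.08 over the 7 markers for ZXD versus HFD and none called by edgeR. The part of these cells in the Glul values was not tested.

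The question of periportal against pericentral genes was put to the ratio of a periportal gene over Glul within each library, which needs no scaling between libraries. The log2 ratio of Gls2 over Glul was -0.51, -0.86, -1.10, -2.47 and -0.89 in ZXD replicates 1 to 5, 0.015, -1.26, 0.72, 0.56 and -0.86 in HFD replicates 1 to 5, and -0.81, -0.36, 0.33, -0.33 and 0.32 in CON replicates 1 to 5. ZXD 4 was the lowest of all 15, and the ZXD range overlapped that of both other groups. The mean was -1.17 ± 0.76 in ZXD, -0.17 ± 0.87 in HFD and -0.17 ± 0.49 in CON (SD, n = 5 each). This was a difference of -0.997 for ZXD versus CON (two-sided exact permutation p = 0.0159, adjusted over 9 ratio tests 0.143) and of -1.001 for ZXD versus HFD (exact permutation p = 0.103, adjusted 0.31). The log2 ratio of Ass1 over Glul averaged 2.47 ± 0.52 in ZXD, 3.25 ± 0.57 in HFD and 2.92 ± 0.57 in CON, and ZXD minus HFD was -0.78 (exact permutation p = 0.0714, adjusted 0.31). The log2 ratio of Cps1 over Glul averaged 3.70 ± 0.61 in ZXD, 4.00 ± 0.76 in HFD and 3.57 ± 0.40 in CON, and HFD minus CON was 0.42 (exact permutation p = 0.286, adjusted 0.514). None of the 9 tests passed after adjustment, and the smallest p that 5 against 5 libraries allow is 0.0079. After adjustment over 9 tests, a lone ratio at this smallest p would still have missed the threshold. Other ratios would have had to reach low p-values with it. The lack of a pass was thus largely set by the number of libraries and tests, and it does not show that the zones kept their balance.

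**Figure D3:**
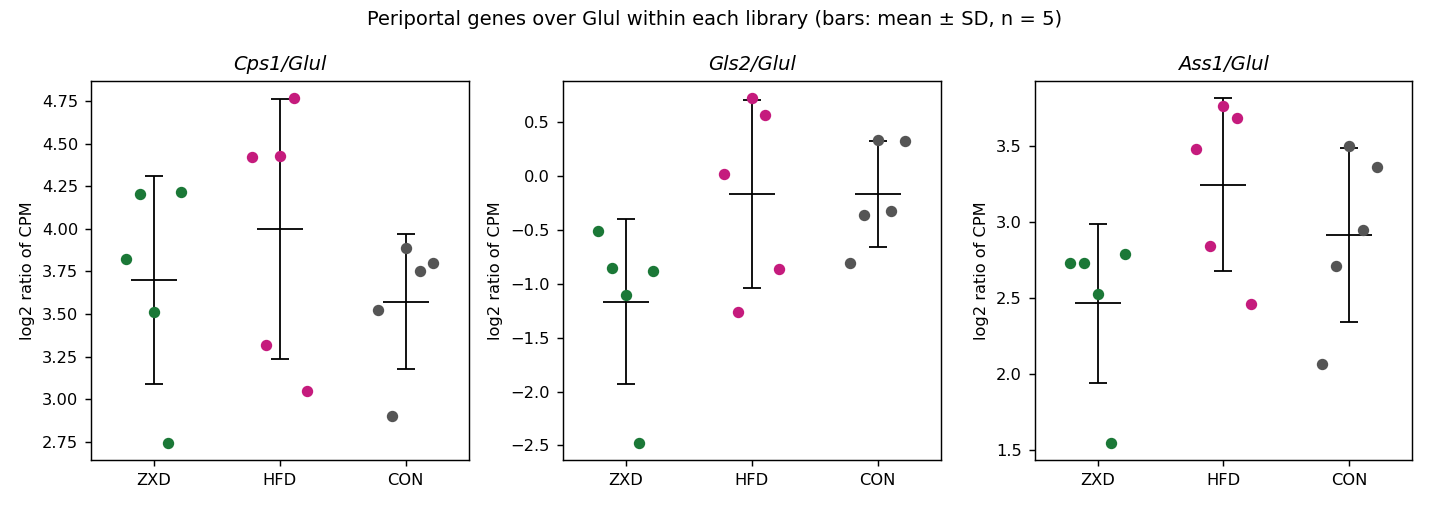
The log2 ratio of Cps1, Gls2 and Ass1 over Glul in each library (vertical axis, log2 ratio of CPM; points, libraries; bars, mean ± SD, n = 5 in ZXD, HFD and CON). The groups overlap in all 3 panels, with ZXD 4 the lowest library for Gls2 over Glul at -2.47 and for Ass1 over Glul at 1.55.

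After group means were subtracted, 9 of the 10 genes moved together over all 15 libraries, and Glul did not follow them. Within CON alone this did not hold for all pairs. CON 1 had the highest Asl of its group at 593 CPM, and the lowest Ass1 and Glud1 at 2102 and 734 CPM. ZXD 4 was the lowest ZXD library for 8 of the 10 genes and HFD 5 was among the 2 lowest HFD libraries for 9, while ZXD 2 was the highest of its group for 6 and HFD 4 for 5. After each group's mean was subtracted, Pearson's r over the 15 libraries lay between 0.667 and 0.908 for the 10 pairs of the 5 enzymes, with a median of 0.758. It lay between 0.44 and 0.916 for the 36 pairs of the 9 genes other than Glul, and between -0.086 and 0.488, with a median of 0.086, for Glul with each of them. These values describe genes that share the cell makeup and scaling of each library, and the libraries differed in their macrophage marker counts. By the median of the 10 genes after centring, the lowest libraries were ZXD 4 at -1.10, HFD 5 at -0.61, HFD 3 at -0.39, ZXD 3 at -0.355 and HFD 2 at -0.31 on the log2 scale. All of these but HFD 3 are among the libraries with the highest macrophage marker sums of their groups, and HFD 3 had 1785 CPM of these markers, the median of its group. HFD 2 and HFD 5 also had the highest hepatocyte marker sums of the HFD group, at 109200 and 97950 CPM. HFD 3 had the lowest of that group, at 75210 CPM. In the ZXD group ZXD 3 and ZXD 4 had the lowest hepatocyte marker sums, at 86290 and 57460 CPM. The part of other cells in the shared movement was not tested.

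**Figure D4:**
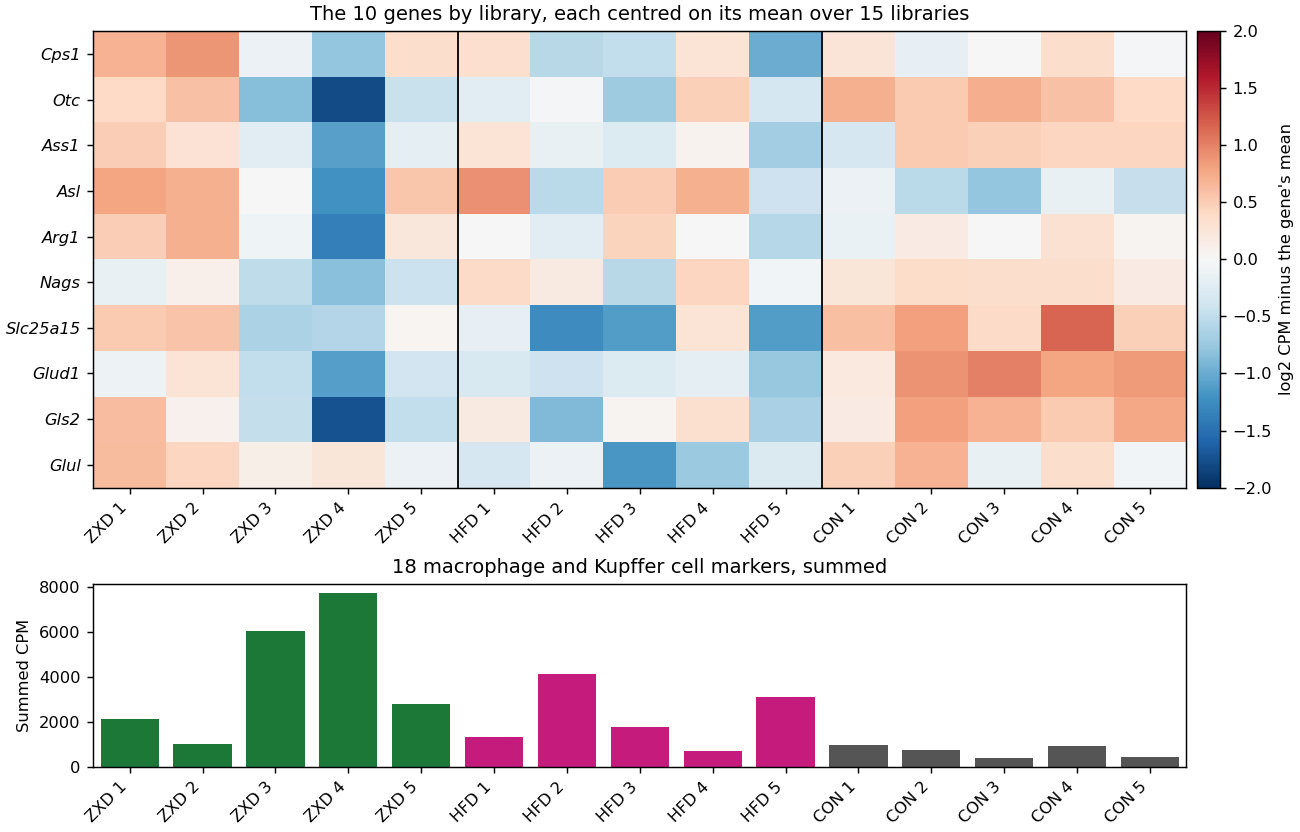
Upper panel, log2 CPM of each of the 10 genes minus its mean over 15 libraries (colour; rows, genes; columns, libraries). Lower panel, the summed CPM of 18 macrophage and Kupffer cell markers in the same libraries from 0. ZXD 4, with the highest marker sum at 7760 CPM, is the lowest ZXD library for 8 of the 10 genes, and Glul is not among these 8.

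Of 8296 genes compared after group means were subtracted, those most like Cps1 over the 15 libraries included Acat1, a mitochondrial thiolase (r = 0.971), Slc38a4, an amino acid carrier (0.969), Furin, a protease of the secretory pathway (0.967), and Znrf3, a ubiquitin ligase of Wnt receptors (0.964). Those most like Glul were Macf1, a cytoskeletal linker (0.918), Car8, a carbonic anhydrase-related protein (0.825), Msrb2, a methionine sulfoxide reductase (0.817), Ccdc80, a matrix protein (0.803) and St3gal3, a sialyltransferase (0.795). The nearest genes to Glul thus followed it less closely than those nearest to Cps1 followed Cps1.

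Around the cycle, 32 carriers and enzymes of ammonia, nitrogen and amino acids were listed, of which 30 were in the table and 27 were tested. On the diet with saline 4 rose and 6 fell relative to chow, with a median log2 fold change of -0.45, and in ZXD relative to CON 4 rose and 6 fell, with a median of 0.00. Over all genes 10.0% rose and 10.9% fell for HFD versus CON, and 17.9% rose and 14.8% fell for ZXD versus CON. Asns, asparagine synthetase, rose to 16.1 ± 8.22 CPM in HFD and 16.0 ± 4.21 CPM in ZXD, against 1.57 ± 1.31 CPM in CON. The log2 fold change was 3.35 in both comparisons, at edgeR adjusted p-values of 0.000641 and 0.00059. In CON Asns ran from 0.285 to 3.59 CPM with a median of 0.98. The lowest value is at the level of 3 counts, so the size of the fold is uncertain. Slc38a3, a glutamine carrier of the liver cell membrane, fell to 843 ± 152 CPM in HFD and 804 ± 129 CPM in ZXD, against 1597 ± 310.5 CPM in CON, or -0.92 and -0.99 on the log2 scale (edgeR adjusted p = 0.00336 and 0.00177). Asns and Slc38a3 kept these calls in every alternative that gave them a value. Slc1a2, a glutamate carrier of pericentral cells, rose by a log2 fold change of 1.09 in HFD and 1.27 in ZXD relative to CON (edgeR adjusted p = 0.0289 and 0.00979). Its call for HFD versus CON did not hold when CON 3, CON 4, CON 5, HFD 2 or HFD 5 was left out, nor with limma voom, with adjusted p-values of up to 0.224 over all alternatives. Got2, the mitochondrial aspartate aminotransferase, fell in HFD relative to CON at a log2 fold change of -0.53 (edgeR adjusted p = 0.0227), a call lost without CON 2, CON 4, HFD 3 or HFD 5 and with library totals, with adjusted p-values of up to 0.524. Nos2, the inducible nitric oxide synthase that uses arginine, lay between 0.0779 and 213 CPM with a median of 19.1 in ZXD and between 0 and 0.340 CPM in CON (edgeR adjusted p = 0.00477), a call lost with limma voom and without HFD 2, HFD 5, ZXD 3 and ZXD 4. The CON values of Nos2 are near the 0.183 to 0.285 CPM that 3 counts stand for, so no fold is given.

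The direction of these counts depended on scaling, since with library totals 6 genes of the list were higher and 1 lower in both HFD versus CON and ZXD versus CON, where 40.9% and 45.9% of all genes were called higher. The 10 calls of the list also depended on single libraries. For HFD versus CON leaving out CON 2, CON 3 or HFD 2 gave 4, leaving out CON 4 or HFD 5 gave 3, and leaving out CON 5 or HFD 3 gave 6. For ZXD versus CON there were 6 without CON 2, CON 3 or ZXD 5 and 5 without ZXD 3 or ZXD 4. Without HFD 2 and HFD 5 the list had 2 calls for HFD versus CON, and without those and ZXD 3 and ZXD 4 it had 3 calls in each. Several macrophage, T, B and NK cell markers were higher in the same comparisons, as given above, and the part of these cells in the risen genes was not tested. For ZXD versus HFD 0 of the 27 genes passed, with a median of 0.18 beside 0.02 over all genes. The smallest p in that comparison went to Slc7a2, a carrier of arginine and other cationic amino acids, with 588 ± 293 CPM in ZXD and 262 ± 181 CPM in HFD, where edgeR's adjusted p was 0.264, and to Nos2, with 12.3 CPM as the HFD median (edgeR adjusted p = 0.27).

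Of 11 tested regulators known to act on urea cycle genes, 4 fell and none rose in HFD relative to CON, and 5 fell and 1 rose in ZXD relative to CON, with medians of -0.48 and -0.55. Beside these stand 10.9% of all genes called lower and 10.0% higher for HFD versus CON, and 14.8% lower and 17.9% higher for ZXD versus CON. The bile acid receptor Nr1h4, or FXR, was lower at 61.2 ± 10.6 CPM in HFD and 56.1 ± 13.3 CPM in ZXD, against 145 ± 34.1 CPM in CON (log2 fold change -1.25 and -1.37, edgeR adjusted p = 0.000687 and 0.000309). Cebpa, a transcription factor of mature hepatocytes, fell at -0.95 in HFD and -1.27 in ZXD (edgeR adjusted p = 0.0102 and 0.0016). Nr3c1, the glucocorticoid receptor, fell in HFD at -0.79 (edgeR adjusted p = 0.0029). Gcgr, the glucagon receptor, fell at -0.46 in HFD (edgeR adjusted p = 0.0473) and at -0.89 in ZXD (edgeR adjusted p = 0.00131), both relative to CON, and the HFD call was lost in 20 of 25 alternatives, among them leaving out any library other than CON 1 and ZXD 4. Foxa2, a liver lineage factor, fell in ZXD at -0.86 (edgeR adjusted p = 0.0153). Library totals ended the calls of Cebpa in HFD and of Foxa2 in ZXD, as did leaving out HFD 2 and HFD 5 for Cebpa and these with ZXD 3 and ZXD 4 for Foxa2. Ppargc1a, a coactivator of the fasting response, rose in ZXD to 14.9 ± 4.13 CPM, against 7.20 ± 2.49 CPM in CON (log2 fold change 1.05, edgeR adjusted p = 0.0139), and was 8.12 ± 3.48 CPM in HFD, with an edgeR adjusted p of 0.184 for ZXD versus HFD. Creb1, which binds cyclic AMP response elements, had the other of the 2 smallest p-values for ZXD versus HFD (log2 fold change 0.71, edgeR adjusted p = 0.198). For HFD versus CON 2 regulators were called with library totals, both lower, and 2 without HFD 2 and HFD 5. For ZXD versus CON library totals gave 2 higher and 3 lower, beside 45.9% higher and 4.77% lower of all genes.

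Among 20 tested periportal genes outside the 10, with zonation known mostly from mouse, 9 fell and none rose in HFD relative to CON, and 8 fell and none rose in ZXD relative to CON, with medians of -0.84 and -0.59, beside 10.9% and 14.8% of all genes called lower. The fallen genes included Hsd17b6, a steroid and retinoid dehydrogenase, at -1.87 in HFD and -1.95 in ZXD (edgeR adjusted p = 5.29e-06 and 3.32e-06). Apof, an apolipoprotein, fell at -2.42 in HFD and -1.71 in ZXD (edgeR adjusted p = 0.000141 and 0.00127), and Cyp2f4, a cytochrome P450, fell at -1.81 in HFD and -2.09 in ZXD (edgeR adjusted p = 0.000154 and 4.93e-05). Ctsc, a lysosomal protease, fell at -0.64 in HFD and -0.76 in ZXD (edgeR adjusted p = 0.00134 and 0.000348). Igf1, a hormone made under growth hormone control, fell at -2.41 in HFD (edgeR adjusted p = 0.00209). Alb, the main plasma protein, fell at -1.63 in ZXD (edgeR adjusted p = 0.00149). Alb is also among the 9 hepatocyte markers, of which 4 fell in HFD and 5 in ZXD relative to CON. The medians of these markers were -0.61 and -0.64. Whether the periportal genes fell apart from hepatocyte genes in general was not tested. Of 22 tested pericentral genes outside the 10, 3 rose and 5 fell in HFD and 3 rose and 7 fell in ZXD, both relative to CON, with medians of -0.15 and -0.31, beside 21.0% and 32.7% of all genes called in either direction. Rgn, a calcium-binding lactonase, fell at -1.76 in HFD and -1.32 in ZXD (edgeR adjusted p = 0.0037 and 0.0113). Slc13a3, a dicarboxylate carrier, fell in HFD at -1.10 (edgeR adjusted p = 0.00904). Lect2, a secreted liver protein, and Gulo, an enzyme of vitamin C synthesis, fell in ZXD at -0.80 and -1.10 (edgeR adjusted p = 0.00706 and 0.0144). Aldh1a1, a retinal dehydrogenase, rose in HFD at 1.56 (edgeR adjusted p = 0.0311), which did not hold when CON 1, CON 3, CON 4, CON 5, HFD 2 or HFD 4 was left out, with edgeR adjusted p-values of up to 0.0746.

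Library totals ended the calls of Ctsc and Slc13a3 in HFD and of Lect2 in ZXD, and leaving out HFD 2, HFD 5, ZXD 3 and ZXD 4 ended those of Rgn, Lect2 and Gulo in ZXD. The direction of the zone lists also depended on scaling. With library totals 2 periportal genes were higher and 6 lower in both comparisons with CON, and of the pericentral genes 8 were higher and 2 lower for HFD versus CON and 7 higher and 3 lower for ZXD versus CON. Of all genes 40.9% were then called higher and 3.84% lower for HFD versus CON, and 45.9% higher and 4.77% lower for ZXD versus CON. The pericentral count for HFD versus CON was 3 without CON 4 or HFD 2, 4 without CON 3 or HFD 5 and 5 without CON 1, CON 5, HFD 3 or HFD 4, against 8 with all libraries. Without HFD 2, HFD 5, ZXD 3 and ZXD 4 it was 4 for HFD versus CON and 4 for ZXD versus CON. For ZXD versus HFD none of the genes of either zone passed, with medians of 0.22 for the periportal and -0.11 for the pericentral genes. The smallest p-values there belonged to Apof (log2 fold change 0.71, edgeR adjusted p = 0.244) and Sds, serine dehydratase (1.12, 0.323), of the periportal genes, and to Tbx3, a transcription factor (-1.03, 0.183), and Lect2 (-0.55, 0.204) of the pericentral genes. Periportal Cps1, Ass1 and Gls2 and pericentral Glul, in this order, gave log2 fold changes of -0.29, -0.46, -0.73 and -0.78 for HFD versus CON and of 0.52, 0.07, -0.09 and 0.77 for ZXD versus HFD. The difference between the zones was tested only in the within-library ratios.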

How the data were processed

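Total RNA from rat liver was purified with Trizol and made into Illumina libraries, per the labels' protocols. For the aligner, the read counter, strand use, genome build and gene models, the entry is: not given in the sources used here. In the submitters' processing notes edgeR appears, without a stated role. The authors deposited whole-number read counts, FPKM values and gene lengths for 21576 genes, per the file headers. The deposited FPKM equalled the count divided by gene length and library total in 100% of 228390 values above 0 within 0.01%, so FPKM was used only to compare levels between genes.

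Groups and replicate numbers came from sample titles. From the counts, edgeR 4.0.16 in R 4.3.3 was used with TMM scaling, filterByExpr (minimum count 10, minimum total 15; 13163 genes kept, 8413 not) and 1 robust quasi-likelihood fit over 15 libraries with 12 residual degrees of freedom. Genes were called at a Benjamini-Hochberg adjusted p under 0.05 over all tested genes. Standard errors come from the ratio of a log2 change to the root of its F statistic. The 95% intervals multiply them by a normal quantile and are approximate, narrower than the F test implies. For Otc in HFD versus CON the interval was -1.39 to -0.03, although the unadjusted edgeR p was 0.0593. Ratios within libraries used log2 CPM and two-sided exact permutation tests (scipy 1.17.1), adjusted over 9 tests. A count of 3 was 0.183 to 0.285 CPM, for counting error only. The fit was tested on simulated data. For ZXD versus HFD 34.3% of 2-fold and 83.3% of 4-fold changes were recovered. The shares were 40.3% and 81.8% for HFD versus CON and 46.3% and 83.3% for ZXD versus CON. Most 2-fold changes were thus missed in the simulation, where 66 or 67 genes were changed at each fold and 88 to 95 were called in all. In the data 2758 genes were called for HFD versus CON and 4299 for ZXD versus CON. With that many calls the adjustment lets larger p-values pass, so the simulated shares do not give the recovery in the comparisons with CON. Of 1.5-fold changes 4.48 to 11.9% were recovered. DESeq2 1.42.0, limma 3.58.1, other scalings and filters, the replicate block and left-out libraries were alternatives.

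The 10 genes and the lists were chosen with earlier results of these data known. Of the lists, up to 5 called genes with the smallest adjusted p were named per comparison with CON, and for ZXD versus HFD, with none called, the 2 with the smallest p. Some genes under these rules are not reported here. Likeness is Pearson's r of log2 CPM after subtracting group means, among tested genes with a mean log2 CPM of at least 3. The labels also mention a simvastatin group, not analysed here.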

Additional observations from a re-analysis of the deposited data

Results flagged for a closer look

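In 39 sets of 5 libraries, a library was looked for whose gap to its nearest neighbour took more than 0.710 of the set's range (Dixon's 95% critical value), which chance gives in about 1 set in 20. CON 1 had the lowest Ass1 of the CON group, with a gap of 0.887 of the range in log2 CPM. CON 1 also had the lowest Glud1 of the CON group, with a gap of 0.732. ZXD 4 had the lowest ratio of Ass1 over Glul in the ZXD group, with a gap of 0.787 of the range of log2 ratios.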

How the results depend on the processing

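Over all genes, library totals gave 5890 calls for HFD versus CON (5385 higher, 505 lower) and 6669 for ZXD versus CON (6041 higher, 628 lower), against 2758 and 4299 with TMM. Without HFD 2 and HFD 5 there were 1043 for HFD versus CON, and without ZXD 3 and ZXD 4 as well, chosen after the data were seen, 1604, and 1957 for ZXD versus CON. Leaving out single libraries gave 1697 to 3235 for HFD versus CON (1734 without CON 3, 1822 without CON 4, 1697 without HFD 2, 1730 without HFD 5), 0 to 7 for ZXD versus HFD (7 without HFD 1, 1 without HFD 3) and 3037 to 4680 for ZXD versus CON. DESeq2 gave 342 for ZXD versus HFD, with 1 of the 10 genes. Among the 10 genes HFD versus CON had 5 calls in a fit of the 2 groups alone and 2 to 3 without single libraries. The replicate block left the calls among the 10 genes at 3, 0 and 2, and gave 1909, 0 and 3466 over all genes. It ended the calls of Slc1a2, Got2 and Gcgr for HFD versus CON. Same-numbered libraries deviated with r of -0.547 to 0.26 over the 3 comparisons. In HFD and CON numbers 1, 2 and 3 had r of 0.244, 0.215 and 0.26, each library matching best with its own number, and numbers 4 and 5 did not match so, and the numbers were not taken to pair the libraries.

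The log2 fold changes that changed sign had all missed the threshold. With library totals these were Cps1 at 0.13, Arg1 at 0.30 and Nags at 0.24 for HFD versus CON, and Ass1 at 0.005 and Glul at 0.41 for ZXD versus CON. Without HFD 2 and HFD 5 Arg1 was 0.075 for HFD versus CON, and Ass1 -0.093, Arg1 -0.013 and Glud1 -0.046 for ZXD versus HFD. Without ZXD 3 and ZXD 4 as well Arg1 was 0.077 for HFD versus CON, Otc 0.31 for ZXD versus HFD and Glul 0.052 for ZXD versus CON. For ZXD versus CON Arg1 was -0.069 with limma voom, and Glul 0.028 with the strict filter of 1 CPM and 0.004 with the replicate block. Leaving out single libraries gave, for ZXD versus HFD, Otc -0.38 to 0.155, Ass1 -0.105 to 0.243, Asl -0.181 to 0.195, Arg1 -0.037 to 0.399, Glud1 -0.142 to 0.224 and Gls2 -0.407 to 0.126, and for ZXD versus CON Arg1 -0.139 to 0.28 and Glul -0.12 to 0.092. The log2 ratio differences ranged from -0.217 to 0.278 for Gls2 over Glul in HFD versus CON and from -0.039 to 0.367 for Cps1 over Glul in ZXD versus CON. The cause of these moves was not tested. No ratio passed its adjusted test in the alternatives run, where a lone ratio at the smallest possible p would have missed as well. Where libraries of a compared group were left out, the smallest p that the exact test allows is higher than with all libraries. For ZXD versus HFD without HFD 2, HFD 5, ZXD 3 and ZXD 4 it is itself over 0.05, so no ratio could pass there.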
